A study of Homo sapiens with 6 samples.

Results

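The baseline described here is that of SNU-398, an established human hepatocellular carcinoma line, as 3 control cultures show it. It rests on 3 of the 6 arrays of the series, those whose titles begin with the word scrambled, replicates 1, 2 and 3. The cells were grown in RPMI medium with fetal bovine serum and treated with a scrambled short hairpin RNA (shRNA). Total RNA was extracted with Trizol, and biotin-labelled RNA was hybridized to Affymetrix arrays. The scrambled hairpin is a control meant to target no gene, so these are hairpin-treated cells and not untouched ones; untreated SNU-398 cells were not analysed here. The titles call the 3 samples biological replicates, and nothing else says how the cultures were separated. All 3 come from a single cell line, so no value says how other liver tumours stand.

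Mature hepatocytes secrete albumin, transferrin, fibrinogen, clotting factors and apolipoproteins, and carry the enzymes of the urea cycle, gluconeogenesis, bile acid synthesis and drug metabolism. Fetal hepatoblasts and many liver tumours express alpha-fetoprotein, glypican-3 or RNA-binding proteins of the embryo. Epithelial cells hold together through E-cadherin, tight junctions and keratins, whereas mesenchymal cells carry N-cadherin, vimentin and matrix proteins, and a small set of transcription factors (SNAI, ZEB, TWIST) is known to repress the former and promote the latter.

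The measure is the deposited intensity of a probe set, a group of probes read as 1 value. Intensities lie on a linear scale with a floor of 10, and a value of exactly 10 gives only an upper bound. Probe sets differ in how strongly they bind, so intensities are used here to place a gene in a class and to compare arrays, not to rank the amounts of different transcripts. Of 18404 genes, 678 (3.68%) were at the floor on all 3 arrays, 13366 (72.6%) had a mean log2 value of 5 or more, which is an intensity of 32, and 6590 (35.8%) one of 7 or more, which is 128. The brightest 10% (1841 genes, 10.0%) began at an intensity of 457, and the median gene was at 74.3. The class above 32 is not the same as expressed. Of 340 olfactory receptor genes, which serve smell and have no known role in liver, 35 were above 32, 3 were above 128 and 81 were at the floor on all arrays. The 95th percentile of these receptors was an intensity of 37.5. Of 14 measured markers of blood cells 3 were above 32, of 11 of endothelium 1, and of both 0 were above 128. Values between 32 and 128 were therefore also reached by genes of other tissues.

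The promoter windows of 5 genes are shown first, since the share of genes above 32 went with the number of CpG dinucleotides at the start. CpG-rich promoters are typical of genes used in many tissues, and CpG-poor ones with a TATA box are typical of genes used in few. The sequences are from RefSeq on GRCh38.p14, 5′ to 3′ on the gene's strand, from 250 bases before the start to 50 after, with each CpG in capitals. ALB (albumin, chr4:73404037-73404336, plus strand) and AFP (alpha-fetoprotein, chr4:73435971-73436270, plus strand) were near the floor, GCG (proglucagon, chr2:162152198-162152497, minus strand) and VIM (vimentin, chr10:17227991-17228290, plus strand) were bright, and LIN28B (an oncofetal RNA-binding protein, chr6:104940715-104941014, plus strand) was above 128 on every array.
ALB: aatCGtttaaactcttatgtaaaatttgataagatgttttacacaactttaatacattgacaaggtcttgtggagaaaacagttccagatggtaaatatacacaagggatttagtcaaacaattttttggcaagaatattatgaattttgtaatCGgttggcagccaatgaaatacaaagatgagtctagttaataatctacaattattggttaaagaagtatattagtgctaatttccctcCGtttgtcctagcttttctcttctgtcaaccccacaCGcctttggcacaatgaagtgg
AFP: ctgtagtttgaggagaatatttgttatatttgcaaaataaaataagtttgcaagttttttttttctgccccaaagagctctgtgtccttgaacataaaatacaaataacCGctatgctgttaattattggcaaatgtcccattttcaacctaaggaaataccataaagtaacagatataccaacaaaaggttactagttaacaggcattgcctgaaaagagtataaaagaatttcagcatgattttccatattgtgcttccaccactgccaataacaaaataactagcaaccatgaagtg
GCG: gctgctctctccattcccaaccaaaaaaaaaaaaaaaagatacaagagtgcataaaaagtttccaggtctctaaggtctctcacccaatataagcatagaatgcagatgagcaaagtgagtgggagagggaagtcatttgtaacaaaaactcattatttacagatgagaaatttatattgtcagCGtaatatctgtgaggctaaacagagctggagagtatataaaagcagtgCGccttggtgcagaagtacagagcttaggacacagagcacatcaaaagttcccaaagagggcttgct
VIM: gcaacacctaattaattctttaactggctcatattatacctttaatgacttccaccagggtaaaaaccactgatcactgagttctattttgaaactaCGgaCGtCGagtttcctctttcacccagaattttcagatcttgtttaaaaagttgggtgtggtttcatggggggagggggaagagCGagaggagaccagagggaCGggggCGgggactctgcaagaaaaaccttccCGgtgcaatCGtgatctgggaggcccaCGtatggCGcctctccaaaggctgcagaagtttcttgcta
LIN28B: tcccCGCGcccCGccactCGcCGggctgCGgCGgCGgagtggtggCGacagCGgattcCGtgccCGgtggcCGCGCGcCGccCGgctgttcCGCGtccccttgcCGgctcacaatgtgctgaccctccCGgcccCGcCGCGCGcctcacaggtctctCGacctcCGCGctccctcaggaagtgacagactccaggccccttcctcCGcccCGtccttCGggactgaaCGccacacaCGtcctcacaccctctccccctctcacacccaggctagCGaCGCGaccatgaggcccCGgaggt
ALB has 4 CpG in this window, AFP 1, GCG 2, VIM 10 and LIN28B 37. The letters TATAAA, on either strand, stand in the windows of AFP and GCG and not in those of ALB, VIM and LIN28B.

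RefSeq windows matched 14228 of the 18404 genes. The 428 matched genes at the floor on all arrays had a median of 3 CpG (25th to 75th percentile 1 to 8), and the 10606 above 32 had a median of 26 (17 to 34). All matched genes together had a median of 23. TATAAA or its reverse complement stood in 24.3% of the windows of floor genes, in 6.24% of those above 32 and in 9.0% of all 14228. Of the 2234 genes with 0 to 4 CpG, 30.4% were above 32 and 12.5% at the floor on all arrays. Of the 1492 with 40 or more, 92.3% were above 32 and 0.603% at the floor. The share in the brightest 10% did not run the same way: it was 1.75% at 0 to 4 CpG, 16.1% at 25 to 29 and 11.5% at 40 or more. GCG, with 2 CpG, is thus among the 1.75% of CpG-poor genes that reached the brightest 10%. The E-box CAGGTG, searched on both strands (as CAGGTG or CACCTG) because SNAI and ZEB proteins are known to bind it, stood in 18.2% of the windows of floor genes, 19% of those above 32 and 19.6% of all. The share was 21.8% for genes below 32 but not at the floor, and lowest, 14.2%, in the brightest 10%. Base composition of a promoter and of its transcript go together, and the part of probe composition in this relation was not tested.

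**Figure D1:**
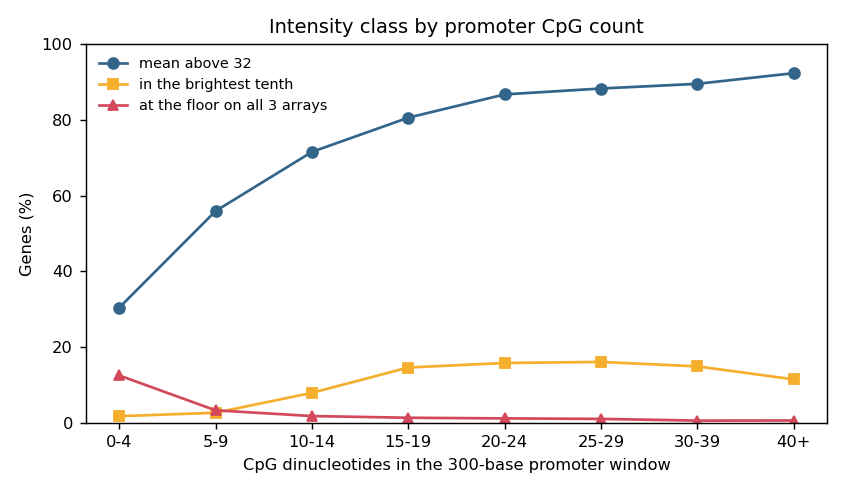
Share of genes (%, vertical axis) above intensity 32, in the brightest 10%, and at the floor on all 3 arrays, by the number of CpG dinucleotides in the 300-base promoter window (horizontal axis) for 14228 genes. The share above 32 goes from 30.4% at 0 to 4 CpG to 92.3% at 40 or more, and the share at the floor from 12.5% to 0.603%, while the share in the brightest 10% is highest, 16.1%, at 25 to 29.

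Ribosomal protein genes were frequent among the brightest probe sets. They were 12 of the 20 brightest genes, 19 of the 50 brightest and 29 of the 100 brightest, led by RPL38 at 8137, 8600 and 7153 on replicates 1, 2 and 3. Among the other 8 were NCL, nucleolin (5716 ± 176, SD, n = 3), NPM1, nucleophosmin (5351 ± 545), both nucleolar proteins of ribosome assembly, and EEF1A1, a translation elongation factor (4955 ± 219). PTMA, prothymosin alpha, was at 6339, 6359 and 6392, a 1.01-fold spread over the 3 arrays. YWHAE, a 14-3-3 protein, PA2G4, TCP1, a subunit of the TRiC chaperonin, and FAF2 completed the 20. FAF2 was measured by 2 probe sets whose means were 6156 and 902, and PTMA by 6 whose means ran from 55.3 to 6363. NPM1 had probe set means of 5351, 3430 and 27.6, RPS28 of 6875, 1309 and 205, and RPL31 of 6443 and 383. RPS27 had means of 4757 and 263, and those of RPL12 ran from 730 to 4717. The place of all these genes among the brightest therefore depends on the probe set. Ribosomal protein genes have pseudogenes of nearly the same sequence, so their signal may be shared. Of all 67 measured ribosomal protein genes, 50 (74.6%) were in the brightest 10%, with a median log2 intensity of 10.75 against 6.22 over all genes. The vimentin gene was the 27th brightest, GAPDH the 30th and ACTB the 49th.

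The cells carried the transcripts of dividing cells. All 20 proliferation genes were above 128, against 35.8% of all genes, and 14 (70%) were in the brightest 10%, with a median log2 intensity of 9.22. MKI67, the Ki-67 antigen, was at 1625, 1495.3 and 1311. TOP2A, topoisomerase II alpha, was at 1210, 1063 and 952, and TYMS, thymidylate synthase, at 1184, 1636 and 1270. Each of these was bright on every array. The dimmest of the list were MCM5 (172, 273 and 207) and MCM2 (228, 209 and 208), subunits of the replicative helicase. Of the 76 respiratory chain and ATP synthase genes, 72 (94.7%, against 72.6% of all genes) were above 32 and 32 (42.1%) in the brightest 10%.

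The secretory products of the hepatocyte were nearly all dim. Of 29 plasma protein genes, 7 (24.1%, against 72.6% of all genes) were above 32 and 0 above 128, and the median intensity was 20.9. ALB was at 12.8, 10.1 and 10.7, just above the floor. HP (haptoglobin) and CP (ceruloplasmin) were at the floor on all arrays, and FGG (fibrinogen gamma) and F9 (clotting factor IX) on 2 of 3. TF, transferrin, was at 11.2, 13.4 and 18.3, and TTR, transthyretin, at 32.6, 27.0 and 37.0. The highest of the list was APOE, a lipid carrier that many other cell types also make, at 136, 89.7 and 72.2. APOA1, the main protein of high-density lipoprotein, followed at 85.6, 68.5 and 61.4 by its brighter probe set, whereas its other probe set was at the floor on 2 arrays with a mean of 10.8. SERPINA1, alpha-1 antitrypsin, was at 39.9, 34.5 and 28.6. No gene of this list lay above the highest blood cell marker, CD68 (109 ± 17.6, SD, n = 3).

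Enzymes and transporters of the mature hepatocyte looked alike in class, with 2 members brighter than the rest. Of 29 measured genes, 8 (27.6%) were above 32 and 1 above 128, and the median intensity was 24.9. CYP7A1, the rate-limiting enzyme of bile acid synthesis, OTC of the urea cycle and ADH4, an alcohol dehydrogenase, were at the floor on all arrays. CYP3A4, UGT2B7 and the uptake transporter SLCO1B1 were at the floor on 2 of 3. G6PC1, the last step of glucose release, was at 10.99, 15.1 and 13.5. CPS1, the first enzyme of the urea cycle, was at 30.2, 25.4 and 34.99. TDO2, which opens the tryptophan ring, was the exception at 158, 185 and 160, and ASS1, argininosuccinate synthase, was at 113, 126 and 120. Across arrays these varied by 1.17-fold and 1.11-fold, log2 ranges of 0.23 and 0.15 against a median of 0.40 over all genes.

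Metabolic genes listed as liver forms and those listed as general forms also differed in class. Of 5 measured genes listed as liver forms, 0 were above 128. The brightest of them, ENO3, at 51.7, 84.9 and 75.7, is the enolase of muscle, so this list is not purely of liver forms. PKLR, the liver pyruvate kinase, was at 52.0, 62.4 and 78.0, and SLC2A2, the liver glucose transporter GLUT2, at 10.0, 14.6 and 11.2. MAT1A, the liver methionine adenosyltransferase, was at 19.65, 29.98 and 26.7. Of 14 measured genes listed as general forms, 11 (78.6%, against 35.8% of all genes) were above 128 and 7 (50%) in the brightest 10%. The 14 include PFKL, the phosphofructokinase of liver. PKM, the pyruvate kinase of most dividing cells, was at 1222, 1150 and 1078, and MAT2A at 1677, 1620 and 2136. HK2, the hexokinase common in tumours, was at 183, 247 and 178. The exception was LDHB, the lactate dehydrogenase subunit of heart, at 30.2, 30.8 and 28.1, while LDHA was at 1955, 2144 and 2252. All 5 genes listed as liver forms, ENO3 among them, were lowest on replicate 1, and their mean there was 0.32 on the log2 scale under their 3-array mean.

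Transcription factors that set liver identity were in a middle class. Of 19 measured, 17 (89.5%, against 72.6% of all genes) were above 32. Above 128 was 1 (5.26%, against 35.8%), and 0 were in the brightest 10% (against 10.0%). FOXA1, a pioneer factor of endoderm, was at 145, 141 and 113. ONECUT2 was at 126, 109 and 125, HNF4G, a relative of the main hepatocyte nuclear receptor, at 141, 90.2 and 133, and GATA4 at 157, 96.4 and 109. CEBPA, a factor of mature hepatocytes, was at 63.1, 52.3 and 46.6. HHEX (112 ± 12.7, SD, n = 3), CEBPB (114 ± 12.3), ONECUT1 (102 ± 22.1), TBX3 (119 ± 15.9) and RXRA (81.5 ± 6.27) lay between these levels. FOXA2 was at 46.8, 93.5 and 74.99, a spread of 2.0-fold. CREB3L3 (66.3 ± 14.8), GATA6 (56.4 ± 15.5), NR1I3 (49.2 ± 1.47) and NR0B2 (48.7 ± 4.36) were lower, and PPARA (38.0 ± 12.1) and FOXA3 (36.0 ± 8.46) were near the level of the 95th percentile of olfactory receptors. NR5A2 (29.4 ± 12.1) and PROX1 (21.4 ± 4.82) were below 32. By mean log2 intensity, 15 of the 19 lay above the 95th percentile of olfactory receptors. Apart from FOXA1, all lay below 128. CD68 (109) and NKG7 (92.1), the highest of the 14 blood cell markers, also lay in that range, while the median of those markers was 20.3. The presence of factors below 128 is thus less certain than that of brighter genes. Of the 24 factors listed, 5 were not analysed here.

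**Figure D2:**
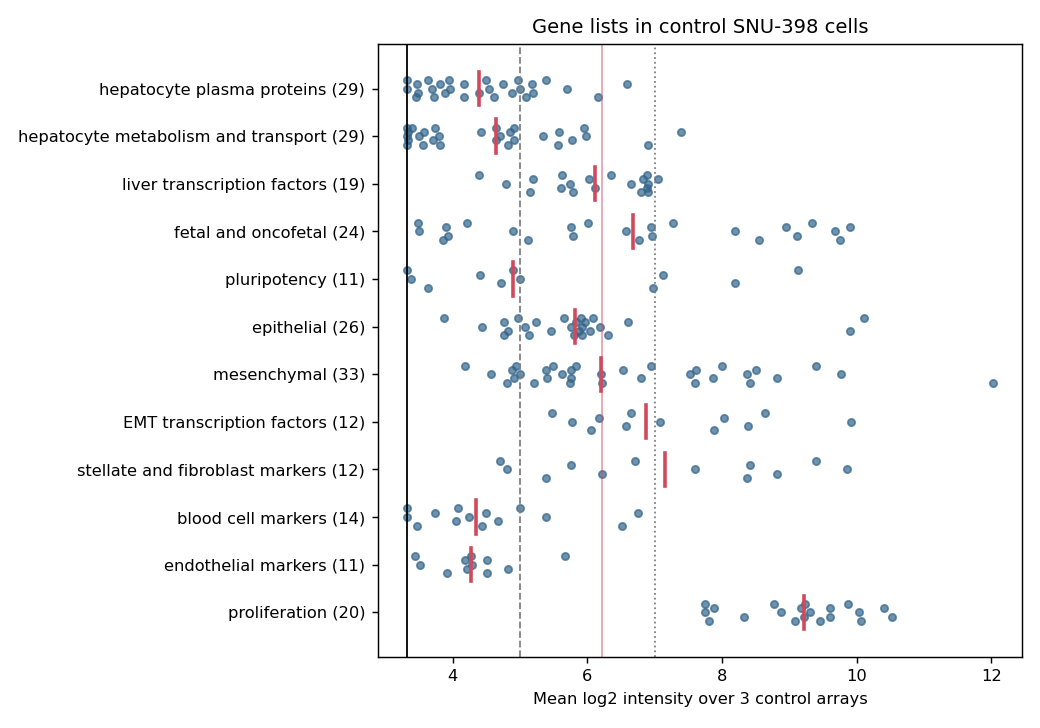
Mean log2 intensity over the 3 control arrays (horizontal axis) of each measured gene of 12 lists, with the number of genes in brackets; points are spread vertically for legibility. Short red bars mark list medians, the solid black line the floor of 10, the dashed and dotted grey lines 32 and 128, and the thin red line the median of all genes (6.22). Hepatocyte plasma proteins, blood cell and endothelial markers gather near the floor, and all 20 proliferation genes lie right of the dotted line.

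Fetal and oncofetal genes lay in all classes. Of 24 measured, 9 were above 128 (37.5%, against 35.8% of all genes), 6 (25%) were in the brightest 10%, 8 lay between 32 and 128 and 7 below 32. The RNA-binding genes were bright. IGF2BP2 was at 641, 640 and 658, IGF2BP1 at 489, 523 and 469, and IGF2BP3 at 680, 535 and 468; their proteins stabilise growth-related mRNAs in the embryo. LIN28B, which blocks maturation of let-7 microRNAs, was at 433, 337 and 359, whereas its paralog LIN28A was at 28.4, 25.8 and 35.6. HMGA1, a chromatin protein of fetal tissue, was at 927, 881 and 776 by its brightest probe set. Its other probe sets had means of 310 and 213, below the brightest 10%. PEG10, a retrotransposon-derived imprinted gene, was at 715, 831 and 921. Of the other stem cell and surface genes, SALL4 was at 283, 264 and 335, GPC3 at 134, 165 and 165, TRIM71 at 124, 165 and 93.3, and THY1 at 124 ± 17.3 (SD, n = 3). The classical serum marker AFP was at 15.3, 15.4 and 14.2, below 32 on every array. PROM1 (14.7 ± 3.07), LGR5 (15.4 ± 2.07), SPINK1 (11.2 ± 0.763), CD24 (11.6 ± 2.70) and KIT (19.4 ± 6.49), all used as markers of liver progenitor or cancer stem cells, were below 32. SOX9 (110 ± 22.9), SOX4 (97.5 ± 22.9), SOX11 (64.8 ± 6.70), DLK1 (56.7 ± 15.5), KRT19 (54.3 ± 8.61) and ICAM1 (34.97 ± 4.28) lay between 32 and 128.

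Among SALL genes, SALL1 was at 275, 211 and 248, close to the values of SALL4, while SALL2 (77.8 ± 9.22, SD, n = 3) and SALL3 (54.4 ± 5.15) were below 128. Of 14 pluripotency genes listed, 11 were measured. POU5F1 and NANOG were not among the 11, so nothing is said here of their level. Of the 11 measured, 5 (45.5%, against 72.6% of all genes) were above 32 and 3 (27.3%, against 35.8%) above 128. The 3 were SALL4 itself, MYC (575, 496 and 623) and UTF1 (130, 156 and 132). DNMT3B, a de novo DNA methyltransferase, was just below at 116, 147 and 116. SOX2 was at 45.3, 35.9 and 20.4 and KLF4 at 32.7, 23.8 and 23.3. DPPA4 (22.7 ± 9.27), ZFP42 (12.5 ± 1.57), DPPA2 (10.4 ± 0.675) and L1TD1 (10.0 ± 0.0115), markers of embryonic stem cells, were below 32.

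Of 5 measured microRNA genes of the liver, 3 were at the floor. These probe sets read the locus of the precursor and not the mature microRNA, and the genes were chosen after other values had been seen. MIR122, the gene of the most abundant hepatocyte microRNA, was at the floor on all 3 arrays, as were MIR148A and MIR194-1. Of 173 microRNA genes, 32.9% were so, against 3.68% of all genes, so the floor is common for this class. MIR194-2 was at 71.7, 66.2 and 78.8, and MIR192, its neighbour, at 28.7, 24.5 and 29.7. Let-7 genes, whose products LIN28B restrains, had 9 measured members, 3 above 32 (MIRLET7D, MIRLET7G and MIRLET7I) and 1 at the floor on all arrays. For all 173 microRNA genes the number above 32 was 42. Restraint of let-7 by LIN28B was not tested. MIRLET7G was at 59.7, 152 and 11.8, a 12.8-fold spread that leaves its level undefined, while MIRLET7I was at 71.9, 56.1 and 62.1. The mature sequences, from RefSeq on GRCh38.p14 with the seed (bases 2 to 8) in capitals, show the seed of the liver microRNA and the seed that the 3 let-7 members share.
hsa-miR-122-5p: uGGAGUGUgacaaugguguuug
hsa-let-7d-5p: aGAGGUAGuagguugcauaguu
hsa-let-7g-5p: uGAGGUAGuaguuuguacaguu
hsa-let-7i-5p: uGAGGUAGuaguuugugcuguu

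Epithelial genes were mostly in the middle class, and E-cadherin was below it. Of 26 measured, 20 (76.9%, against 72.6% of all genes) were above 32, but only EPCAM and TJP1 were above 128. CDH1, E-cadherin, was at 25.2, 27.3 and 28.8. EPCAM, a homophilic adhesion protein of epithelia and progenitors, was at 875, 1138 and 874 by its brighter probe set and had a mean of 279.95 by the other. TJP1, the scaffold ZO-1, was at 909, 947 and 1568, highest on replicate 3. Of the keratins of simple epithelium and of hepatocytes, KRT8 was low, at 22.7, 43.2 and 44.3. KRT18 was at 69.6, 117 and 113 by its brighter probe set, and its mean of 99.8 was above the median gene (74.3). By these probe sets both were lowest on replicate 1, by 0.96 and 0.75 on the log2 scale under the highest array. The other probe set of KRT18 ran the other way, at 63.8, 47.1 and 42.99, and was highest on replicate 1. CLDN1 (31.8 ± 6.96, SD, n = 3), GRHL2 (21.9 ± 3.04) and RAB25 (14.8 ± 3.04) were below 32, and CLDN3 (73.8 ± 15.4), DSP (68.2 ± 8.54) and ESRP2 (60.7 ± 6.14), a splicing factor of epithelia, were between 32 and 128. KRT7 (59.2 ± 11.1) and KRT19, keratins of bile duct cells, and SPP1 (60.4 ± 29.8) lay there too. CFTR, a chloride channel of bile ducts, was at the floor on 2 of 3 arrays.

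Mesenchymal genes ran from bright to dim, with shares in the classes near those of all genes. Of 33 measured, 26 (78.8%, against 72.6% of all genes) were above 32 and 12 (36.4%, against 35.8%) above 128. In the brightest 10% were 3 (9.09%, against 10.0%), and the median log2 intensity of 6.20 was close to that of all genes (6.22). VIM was at 4411, 3952 and 4147. CDH2, N-cadherin, which hepatocytes also carry, was at 944, 741 and 931. LUM, the matrix proteoglycan lumican, was at 677, 644 and 690, and FAP, a fibroblast surface protease, at 404, 515 and 441. COL3A1 was at 408, 263 and 372, DCN, decorin, at 183, 215 and 187, and ACTA2, smooth muscle actin, at 295, 340 and 355. AXL, a receptor kinase, was at 364, 295 and 447. In contrast, FN1, fibronectin, was at 54.1, 49.9 and 44.3, COL1A1 at 74.3, 63.3 and 86.3, SPARC at 32.2, 32.2 and 48.2 and POSTN, periostin, at 17.8, 16.5 and 20.4. LOX, a collagen cross-linking enzyme, had the widest spread of the list, at 44.9, 35.3 and 16.02.

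Of 12 measured transcription factors of epithelial-mesenchymal transition, all were above 32, against 72.6% of all genes. Above 128 were 6 (50%, against 35.8%), and 1 was in the brightest 10% (8.33%, against 10.0%). ZEB2 was at 910, 946 and 1056, but its other probe set was at the floor on all arrays. TWIST1 was at 385, 373 and 438, PRRX1 at 327, 212 and 187, TCF4 at 290, 435 and 295 and TCF3 at 236, 257 and 289. FOXC2 was at 136 ± 19 (SD, n = 3). Factors of the SNAI family were dimmer, with SNAI1 at 56.0, 48.9 and 32.3, SNAI2 at 92.4, 70.5 and 45.4 and SNAI3 at 102, 110 and 90.5. ZEB1 (72.1 ± 7.94), TWIST2 (96.9 ± 18.5) and GSC (55.8 ± 13.5) were also between 32 and 128. Replicate 3 was the lowest array for 8 of the 12, among them SNAI1, SNAI2 and PRRX1, and the highest for ZEB2, TWIST1 and TCF3.

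**Figure D3:**
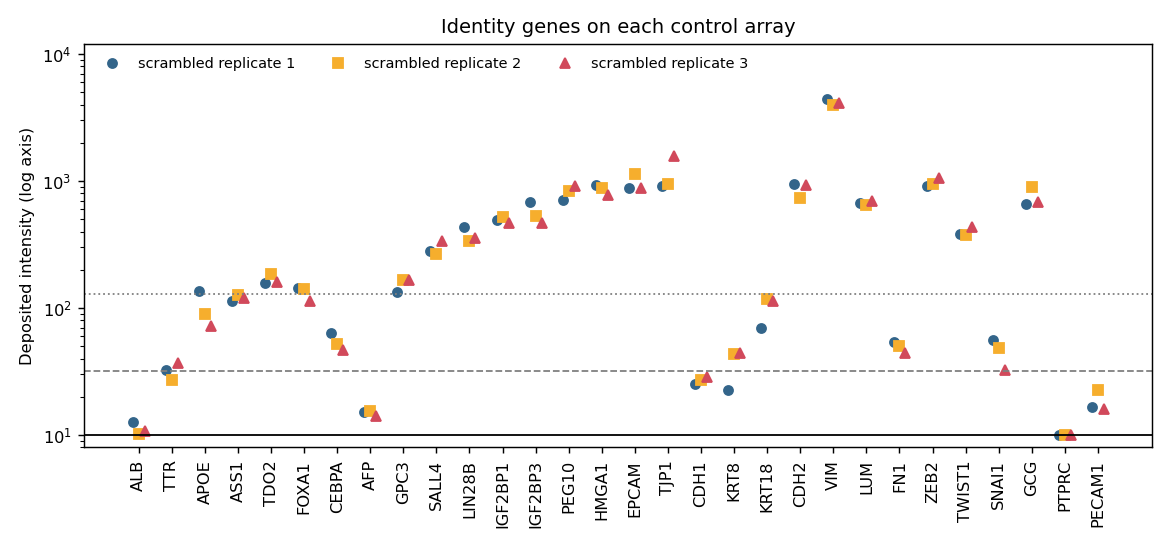
Deposited intensity (vertical log axis) of 30 identity genes on scrambled replicates 1 (circles), 2 (squares) and 3 (triangles). The solid line is the floor of 10, the dashed line 32 and the dotted line 128. ALB, AFP, CDH1 and PTPRC lie under the dashed line on every array, and VIM, CDH2, ZEB2, EPCAM and the IGF2BP genes well over the dotted line.

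Markers of other cell types were set beside the mesenchymal genes. Among 12 markers of stellate cells and fibroblasts, 10 (83.3%, against 72.6% of all genes) were above 32. Above 128 were 6 (50%, against 35.8%), namely RGS5 (841, 964 and 984), LUM, FAP, COL3A1, ACTA2 and DCN. Of those 12 markers, 9 are also in the mesenchymal list. The other 6 were lower. DES, desmin of stellate and muscle cells, was at 116, 112 and 87.2, COL1A1 had a mean of 74.6 and COL1A2 of 54.3, and PDGFRB, a platelet-derived growth factor receptor, was at 43.8, 43.4 and 38.4, all above 32 on every array. PDGFRA, at 23.9, 24.8 and 36.9, and LRAT, the enzyme that stores vitamin A in stellate cells, at 33.2, 27.95 and 18.9, had means below 32. Blood cell markers had PTPRC (CD45) and LYZ at the floor on all arrays, and their means ranged from 10 to 108 as geometric means. Endothelial markers ranged from 10.9 to 50.9, with PECAM1 at 16.8, 22.5 and 15.9 and CDH5 at 28.4, 31.1 and 25.7. The part of other cells in any value was not tested, and in bulk RNA fewer cells with a transcript and less transcript per cell cannot be told apart.

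Of 25 measured receptor tyrosine kinases, 18 (72%, against 72.6% of all genes) were above 32 and 5 (20%, against 35.8%) above 128. DDR2, a collagen receptor kinase, was at 527, 480 and 836, and its other probe set had a mean of 545. FGFR1 was at 304, 458 and 461, ERBB4 at 353, 335 and 430 and IGF1R at 278, 324 and 250. With AXL these were the 5 above 128. MET, the hepatocyte growth factor receptor, was at 10.1, 20.1 and 22.0. EGFR was at 48.0, 72.8 and 38.0, ERBB3 at 35.6, 22.2 and 26.5 and FGFR4, a fibroblast growth factor receptor of hepatocytes, at 61.7, 64.7 and 84.1.

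Genes known as Wnt targets were bright in part. Of 13 measured, 12 (92.3%, against 72.6% of all genes) were above 32 and 6 (46.2%, against 35.8%) above 128. In the brightest 10% were 2 (15.4%, against 10.0%). LEF1, a nuclear partner of beta-catenin, was at 1328, 1447 and 937, and AXIN2, a feedback inhibitor of the pathway, at 658, 830 and 655. DKK1 was at 222, 279 and 257. GLUL, glutamine synthetase of the pericentral hepatocyte, was at 142, 193 and 168 by its brighter probe set and at 67.9, 60.2 and 55.6 by the other, which is below 128. LGR5 and RNF43 (35.9, 33.2 and 30.8) were dim, and LEF1 was lowest on replicate 3.

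Single genes outside the liver programme were bright as well. GCG, the hormone precursor of pancreatic alpha cells and gut L cells, was at 657, 894 and 684, while CHGA, a granule protein of endocrine cells, was at 26.0, 26.1 and 24.8, and SST, somatostatin, at 34.9, 36.8 and 28.0. CHGB was at 110, 143 and 138, and INSM1 (111 ± 5.79, SD, n = 3) and ISL1 (103 ± 7.64), factors of endocrine cells, were below 128. GHRL (86.9 ± 15.9), PAX6 (85.9 ± 22.8) and SYP (37.9 ± 1.87) also lay between 32 and 128. Of the 9 measured islet and neuroendocrine genes, 8 (88.9%, against 72.6% of all genes) were above 32, all but CHGA. Above 128 were 2 (22.2%, against 35.8%), GCG and CHGB. Of 16 measured cancer testis genes, whose expression is normally restricted to germ cells, 2 (12.5%, against 72.6% of all genes) were above 32. These were PRAME, at 311, 359 and 286, and CTAG2, at 123, 102 and 89.9, and the other 14 were below 32. The immediate early gene EGR1 was at 3202, 2987 and 3472 and the haem oxygenase gene HMOX1 at 1721, 1502 and 1393, whereas FOS was at 113, 134 and 148. As a set, the 27 measured HOX genes were not bright. Above 32 were 23 (85.2%, against 72.6% of all genes) and above 128 were 6 (22.2%, against 35.8%). In the brightest 10% were 0, and the median was 66.5 against 74.3. The highest were HOXC10 (386, 297 and 399) and HOXC8 (272, 381 and 365). HOXC9, which lies between them in the cluster, was at 36.2, 45.3 and 113.

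The 3 arrays differed little for bright genes and more for dim ones. Their medians were 51.1, 51.69 and 50.35, and between 15.5% and 15.7% of the 32319 probe sets of each lay at the floor. Across the 18404 genes, Pearson's r of log2 intensity was 0.979 for replicates 1 and 2, 0.975 for 1 and 3 and 0.975 for 2 and 3, as a description across genes that are not independent. The median SD of log2 intensity over the arrays was 0.21. It was 0.27 for the 2761 genes between 16 and 32, 0.24 between 32 and 128, 0.20 between 128 and 512, 0.16 between 512 and 2048 and 0.10 for the 120 genes above 2048. The 0.13 of genes under 16 reflects the floor, which holds values together. A spread of over 2-fold was seen in 1004 genes (5.46%), in 547 of the 6776 genes between 32 and 128 and in 0 of the 120 above 2048.

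**Figure D4:**
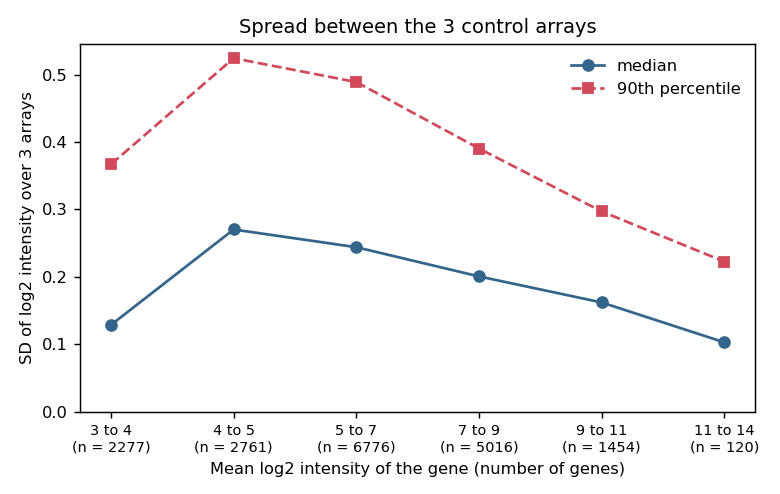
Standard deviation of log2 intensity over the 3 control arrays (vertical axis), as the median and the 90th percentile of the genes in each class of mean log2 intensity (horizontal axis, number of genes below). The median goes from 0.27 at 4 to 5 to 0.10 at 11 and above, and the lowest class is held together by the floor.

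Above a mean of 128, the widest spreads were in genes of no common role. MPRIP, a myosin phosphatase partner, was at 412, 142 and 755, a 5.31-fold spread, but its other probe set was at 157, 179 and 134. ZCCHC10 was at 238, 508 and 106. SRP14, a subunit of the signal recognition particle, was at 991, 3398 and 1813, the brightest of this group. TUBD1, STEAP1B, ZDBF2, RTN4IP1, WHR1, ZNF271P, PANK2, KLF7 and ZNF114 had spreads from 2.92-fold to 3.72-fold. The extreme array was not the same in each of them: KLF7 was lowest on replicate 2 (350, 116 and 193) and TUBD1 on replicate 3 (244, 153 and 65.5).

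Lists and single genes differed in which array stood apart. Among the 13366 genes above 32 it was the array farthest from the middle value in 36.9%, against 30.8% for replicate 1 and 32.2% for replicate 2, and among the 680 of them that spread over 2-fold in 44.6%. Proliferation genes were on average 0.16 lower there on the log2 scale than their 3-array mean, with 15 of 20 lowest on replicate 3; over all genes the mean was 0.02 lower, and 36.0% of the genes that were not equal on all arrays were lowest there. CDK1, the mitotic kinase, was at 302, 227 and 163, and RRM2, a subunit of ribonucleotide reductase, at 761, 740 and 450. MCM6, another helicase subunit, was highest on replicate 3 (567, 516 and 725). The 12 transition factors and the 11 endothelial markers were each on average 0.20 lower on replicate 3, the latter from values near the floor. Mesenchymal genes were on average 0.09 higher there, among them TPM1 (172, 121 and 297) and CALD1 (200, 182 and 343), both binding actin filaments. Other departures were on replicate 1, where the genes listed as liver forms had the deviation of -0.32 given above, the largest of any list. There, 16 of 26 hepatocyte metabolism genes not equal on all arrays (61.5%, against 32.9% of all such genes) were lowest. PKLR, FBP1, MAT1A and SLC2A2 are in both of these lists, so the departures share genes. The median intensity of the metabolism list was only 24.9. Without replicate 3 the number above 32 was 27 of 33 mesenchymal genes, against 26 with it, and 12 of 12 transition factors and 20 of 20 proliferation genes, as with it.

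**Figure D5:**
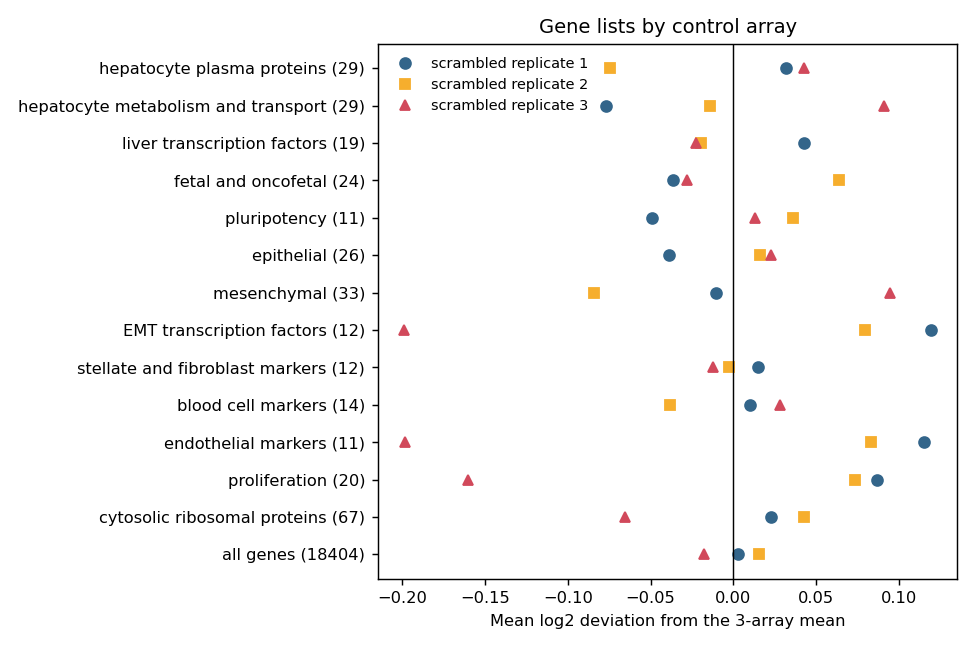
Mean deviation of each gene list from its own 3-array mean (horizontal axis, log2 scale) on scrambled replicates 1 (circles), 2 (squares) and 3 (triangles), with the number of genes in brackets. Replicate 3 lies at -0.20 for transition factors and endothelial markers and at -0.16 for proliferation genes, whereas over all genes the 3 arrays lie within 0.03 of each other.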

How the data were processed

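RNA of 3 SNU-398 control cultures was measured on Affymetrix arrays. The deposited table gives the authors' linear intensity of each of 32319 probe sets. Per the submitters' processing notes the tool was RMA, which corrects background, normalizes and summarises probes. Its version, and the steps that left linear values with a floor of 10, were not given in the sources used here. Columns of the other samples were not used. Probe sets were named by the platform annotation supplied with the series (19158 with 1 symbol, 1388 with several, 11773 unlisted), and 19128 symbols were updated by Entrez identifier to those of GRCh38.p14. The probe set with the highest mean log2 intensity over the 3 arrays stood for each of 18404 genes. Means are of intensities with the SD over 3 arrays; classes use the mean log2 intensity. The number of arrays limits the precision. There is 1 group, so no comparison and no test was made. Summaries were computed with Python 3.11.15 and pandas 2.3.3 and tested on simulated data. The 25 lists and the rule for named genes (the 20 brightest, the 12 with the widest spread, up to 5 brightest, the floor members and the most variable member of each list, and genes and whole lists set by name) were chosen with earlier results of these data known; other genes were named after their values were seen. Promoters and microRNAs are from RefSeq. Alternatives were another array scaling, other intensity thresholds, the mean of a gene's probe sets, all probe sets, and leaving out each array.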

Additional observations from a re-analysis of the deposited data

How the results depend on the processing

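No paired analysis was possible because there is 1 group and no test. The number of genes above 32 stayed within 1.5 times of 13366 under array scaling, with the mean of a gene's probe sets, at thresholds of 16 and 64, on every array (12472), at the 95th percentile of olfactory receptors (12601, chosen after seeing the data) and without each array. Counts of lists moved with the threshold. At 16 the plasma protein list had 17 genes and hepatocyte metabolism 16. At 64, liver transcription factors had 11, plasma proteins 2, hepatocyte metabolism 2, epithelial genes 7 and mesenchymal genes 17. At 128, chosen after seeing the data, they had 1, 0, 1, 2 and 12, fetal genes 9 and transition factors 6. Plasma proteins above 32 numbered 4, not 7, on every array and also at the olfactory level. Over all probe sets 11.3% were at the floor on all arrays, against 3.68% of genes. With the mean of probe sets the brightest 10% began at a log2 intensity of 8.79, not 8.84. The median SD between arrays, 0.21, was 0.165 on log2 of intensity plus 16, which shrinks dim genes, and from 0.159 to 0.177 without an array, where it is of 2 values. Which array is farthest cannot be asked of 2 arrays. Of 637 genes with several probe sets, 352 had means that differed by over 2-fold, and for 149 the brightest was above 32 and the dimmest below.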

Other observations

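Probe sets without a single gene name were not described above. Of 13161 such probe sets, 5798 (44.1%) had a mean intensity above 32, 1390 were in the intensity range of the brightest 10% of genes and 2922 were at the floor on all 3 arrays.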
